A study of Mus musculus with 7 samples.

Results

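The tubular injury response genes are 10 genes known for their rise in damaged kidney tubules, namely Havcr1, Lcn2, Spp1, Vcam1, Clu, Sox9, Cd44, Gpnmb, Vim and Cp. They were chosen by symbol among the 24328 genes listed for each library, and all 10 were found. Normalized counts (read counts divided by the size factor of the library) were averaged within each mouse before LBR-null kidneys were compared with the WT kidney. LBR is a protein of the inner nuclear membrane that holds heterochromatin at the nuclear edge, and it is also a sterol reductase. The study asked whether loss of this protein changes gene expression in kidney. LBR-null mice (Lbric-J/ic-J) were of the C57BL/6J strain and carried the loss-of-function allele ic-J on both chromosomes, and the WT mouse (Lbr+/+) was their littermate. All 4 mice were 4 weeks old, untreated as far as the labels say, and RNA came from aliquots of the pulverized right kidney. The mutation is present in every tissue, and the study describes sparse fur and a smaller body in these mice, so loss of LBR in kidney cells and elsewhere in the body cannot be told apart. From LBR-null mice 4001 and 4007, and from WT mouse 4009, 2 libraries each were sequenced, and from LBR-null mouse 4002 only 1.

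When a tubule is damaged, its epithelial cells lose part of their mature transport program and turn on genes of early nephron development, adhesion and secretion. Havcr1 and Lcn2 encode proteins that are measured in urine as signs of kidney damage, while Spp1, Clu and Cp encode other secreted proteins made by stressed epithelium. Vcam1, Cd44 and Gpnmb encode surface proteins, Sox9 a transcription factor of the regenerating tubule, and Vim an intermediate filament that epithelium gains when it loses its differentiated state. Several of these genes are also read in other cells, Lcn2 in neutrophils, Vcam1 in endothelium, Gpnmb and Spp1 in macrophages and Cp and Lcn2 in liver.

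The members did not move together. Of 9 members with a mean of at least 5 normalized counts over the 4 mice, Lcn2 and Cp were above WT throughout, meaning that all 5 LBR-null libraries exceeded both WT libraries (2 of 9, against 25.5% of the 17283 genes tested). Spp1, Clu and Vcam1 were below WT throughout, with all 5 under both (3 of 9, against 25.7%). Gpnmb was higher in mice 4001 and 4007 and at the WT level in mouse 4002. Sox9, Cd44 and Vim overlapped between the groups, and Havcr1 had too few reads for the test. Clu differed most by ratio among the 10, with 3730 ± 718 normalized counts in LBR-null kidneys (SD, n = 3) and 12244 in the WT kidney. limma, run on log2(normalized counts + 1) of the mouse means with Benjamini-Hochberg adjustment, called 0 members and 0 genes at an adjusted p of 0.05 with a 2-fold change (0% of 17283 genes tested), while Cp was higher and Spp1, Clu and Vcam1 were lower at an unadjusted p under 0.05, where 10.7% of all genes were higher and 8.05% lower. With 3 mice against 1, an exact permutation test cannot go below a one-sided p of 0.25.

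**Figure D1:**
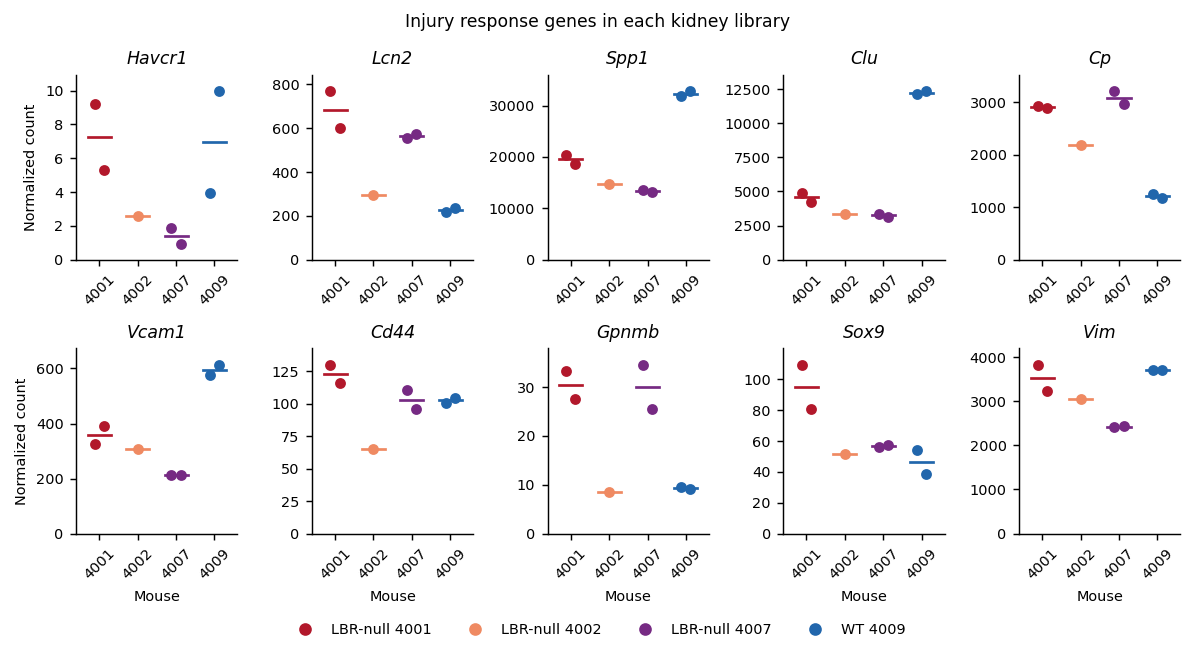
Normalized counts of the 10 injury response genes, by mouse, on linear axes that start at 0. Points are libraries, lines are mouse means, red to purple marks LBR-null mice and blue the WT mouse. Spp1, Clu and Vcam1 lie below the WT libraries and Cp and Lcn2 above them in every LBR-null library.

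The libraries held 20694016 to 26333284 reads on genes, and 1 read was worth 0.787 to 1.15 normalized counts. Among the members other than Havcr1, the libraries of a mouse differed at most 1.40-fold. Defining genes of kidney were abundant in all 4 mice, with Umod of the loop of Henle between 20476 and 65565 normalized counts and Aqp2 of the collecting duct between 19155 and 35005. Lbr was at 322, 340 and 472 normalized counts in mice 4001, 4002 and 4007 and at 398 in WT, so the transcript cannot serve to check the genotypes. Sex is not among the labels. Xist was at 5785, 65.3 and 9940 in the LBR-null mice and 35.5 in WT, and Ddx3y, on the Y chromosome, at 141, 1516, 44.3 and 1284, so the kidney labelled mouse 4001 holds reads of both genes. Mouse 4002 is the LBR-null mouse nearest to WT in both. Ratios without mouse 4001 stand beside each member below, with the values of mouse 4002 in the per-library counts. Those ratios still include mouse 4007, with Xist at 9940 and Ddx3y at 44.3, so they are not matched to WT in these genes. The part of sex in any difference was not tested.

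The upstream sequences of members are shown because the study sorts genes by whether a CpG island lies at their start. RefSeq sequences (GRCm38.p6) were matched for 7 members, in 11 windows of 250 bases that end just before a transcription start. Sequences of Vcam1, Clu and Sox9 were not used here. These are the windows of the matched members whose groups did not overlap, with the first listed start of Cp and of Spp1, and capitals mark matches to the motifs named after them.
Lcn2, chr2:32387740-32387989, minus strand: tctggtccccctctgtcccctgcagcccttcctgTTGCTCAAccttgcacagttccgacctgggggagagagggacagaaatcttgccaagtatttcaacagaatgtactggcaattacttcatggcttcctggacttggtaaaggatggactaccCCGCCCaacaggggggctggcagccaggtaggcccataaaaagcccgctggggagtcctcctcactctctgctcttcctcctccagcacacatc
Cp, chr3:19956804-19957053, plus strand: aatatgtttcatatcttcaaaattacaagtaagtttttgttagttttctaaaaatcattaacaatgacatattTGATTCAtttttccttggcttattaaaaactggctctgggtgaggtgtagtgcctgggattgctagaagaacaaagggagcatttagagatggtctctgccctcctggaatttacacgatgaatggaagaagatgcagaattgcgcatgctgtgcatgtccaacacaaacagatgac
Spp1, chr5:104434861-104435110, plus strand: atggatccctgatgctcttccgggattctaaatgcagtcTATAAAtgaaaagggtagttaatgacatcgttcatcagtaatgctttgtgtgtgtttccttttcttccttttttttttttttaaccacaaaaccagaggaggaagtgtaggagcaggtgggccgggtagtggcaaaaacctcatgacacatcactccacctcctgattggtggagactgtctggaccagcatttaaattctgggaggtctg

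The window of Lcn2 had a GC content of 56.4% and an observed over expected CpG ratio of 0.154, that of Cp 37.2% and 0.236, and that of Spp1 43.6% and 0.255. Over the 11 windows of members the ratio lay between 0.143 and 0.548, the highest in Gpnmb. The median of all 32851 windows was 0.373, and 31.0% of windows passed a ratio of 0.6 with a GC content of at least 50%. None of the 11 windows passed both, whether the member was higher, lower or overlapping in LBR-null kidneys. The windows stop at the start site, so an island that lies past it is not seen. Motifs were sought on either strand. TTGCNNAA, a site of C/EBP factors, stood in 4 of the 11 windows and in 9.56% of all windows, and it is the first match marked in the window of Lcn2. The other match there is the reverse complement of a GC box (GGGCGG), which no other window of a member held but 32.7% of all windows did. The match marked in the window of Cp is an AP-1 site (TGANTCA), found in 1 window of a member and in 6.75% of all windows. That of Spp1 is a TATA box (TATAAA), which starts 211 bases before the transcription start and was found in 3 windows of members and in 12.4% of all. The site of TEAD factors (GGAATG) was found in 1 window and in 12.6% of all, and the NF-kappaB consensus in 1 (Vim) and 7.25%. The STAT site TTCNNNGAA was found in 0 windows of members and in 7.02% of all. The windows of Cp overlap each other, the members with several starts count more than once, and a match of letters is no evidence of binding.

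Lcn2 encodes neutrophil gelatinase-associated lipocalin, which binds iron-carrying siderophores and is secreted by injured distal tubules. The gene spans 32240153 to 32243317 on mm9 chromosome 2. Its normalized counts were 768 and 599 in the libraries of mouse 4001, 293 in mouse 4002, 554 and 573 in mouse 4007, and 220 and 234 in WT. The groups do not overlap, but mouse 4002 stood much closer to WT than to mouse 4001. The mean of the LBR-null mice was 2.26 times the WT value, and 1.89 times without mouse 4001. limma, on the mean of the log values, put the log2 fold change at 1.09 (95% interval -0.08 to 2.26, adjusted p = 0.294). Of its receptors, Lrp2 (megalin, the endocytic receptor of the proximal tubule) was at 8188 ± 3368 (SD, n = 3) versus 23320, below WT throughout, while Slc22a17 was at 953 ± 280 versus 1043 and overlapped.

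Cp encodes ceruloplasmin, a copper-carrying oxidase that loads iron onto transferrin. The gene spans 19857054 to 19909145 on mm9 chromosome 3, and 108 exon bases are shared with Hps3 on the opposite strand. Whether counting used strand is not given in the sources used here, so reads of these bases cannot be assigned. Cp was at 2923 and 2889 normalized counts in mouse 4001, 2192 in mouse 4002, 3204 and 2962 in mouse 4007, and 1247 and 1176 in WT. All LBR-null libraries lay well above the WT libraries, and the 3 mice differed less from each other (1.41-fold from lowest to highest) than any of them did from WT (1.81- to 2.54-fold). limma put the log2 fold change at 1.15 (95% interval 0.47 to 1.84) with an adjusted p of 0.118. The LBR-null mean of Cp was 2.18 times WT without mouse 4001, 2.47 times without mouse 4002 and 2.10 times without mouse 4007. Of its partners in iron handling, Trf (transferrin) was at 5404 ± 2836 (SD, n = 3) versus 1874, and Heph, a ferroxidase of the same family, at 976 ± 351 versus 605. Both were above WT throughout, as were the transferrin receptor Tfrc, at 2200 ± 826 versus 1257, and the ferritin chain Fth1. The other ferritin chain, Ftl1, was below WT throughout, with 40427, 33822 and 39750 in the LBR-null mice and 69948 in WT. Ferritin genes have many processed copies between which reads can be split, so both are uncertain. The iron exporter Slc40a1, at 1536 ± 468 versus 1571, and Hamp overlapped. Hephl1, a relative of Heph, was at 20.6 ± 2.47 versus 2.99. It overlapped because 1 library of mouse 4001 had 0 reads, while the mean of that mouse was 20.9. The libraries of mouse 4001 thus disagreed, which the SD of mouse means does not show.

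Spp1 encodes osteopontin, a secreted phosphoprotein that is bound by integrins and by Cd44. The gene spans 104864137 to 104870069 on mm9 chromosome 5. Its normalized counts were 20409 and 18617 in mouse 4001, 14767 in mouse 4002, 13497 and 13169 in mouse 4007, and 31898 and 32752 in WT. The highest LBR-null library was far below the lower WT library. WT was 2.04 times the LBR-null mean, a value so near to 2-fold that leaving out mouse 4002 or 4007 brings Spp1 under the limit. The log2 fold change was -1.05 (95% interval -1.98 to -0.11, adjusted p = 0.220 in limma). Without mouse 4001 the LBR-null mean was 0.435 of WT. Spp1 ranked 36 of 24328 genes in the WT kidney by normalized count. Among its integrin receptors, Itgb3 was at 230 ± 101.1 (SD, n = 3) versus 94.7, above WT throughout. Itga9 was at 518 ± 55.4 versus 997 and Itgb1 at 8722 ± 1710 versus 11198, both below WT throughout. Itgav, at 2644 ± 423 versus 2330, and Itgb5, at 5113 ± 378 versus 4647, overlapped.

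Clu encodes clusterin, an extracellular chaperone that is secreted by stressed tubules and taken up by megalin. The gene spans 66587320 to 66600385 on mm9 chromosome 14. It was at 4882 and 4233 normalized counts in mouse 4001, 3360 in mouse 4002, 3382 and 3161 in mouse 4007, and 12157 and 12332 in WT. WT was 2.69, 3.64 and 3.74 times the level of mice 4001, 4002 and 4007. The gap to WT was wider than the spread among LBR-null mice, which differed 1.39-fold. On the log2 scale the fold change was -1.73 (95% interval -2.46 to -1.0, adjusted p = 0.0938 in limma). The LBR-null mean was 0.271 of WT without mouse 4001, 0.320 without mouse 4002 and 0.323 without mouse 4007. Of receptors that can bind clusterin, Vldlr was at 3302 ± 1273 (SD, n = 3) versus 1755, above WT throughout, Lrp8 at 30.9 ± 9.31 versus 46.7, below WT throughout, and Trem2 at 34.1 ± 1.80 versus 15.1, overlapping.

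**Figure D2:**
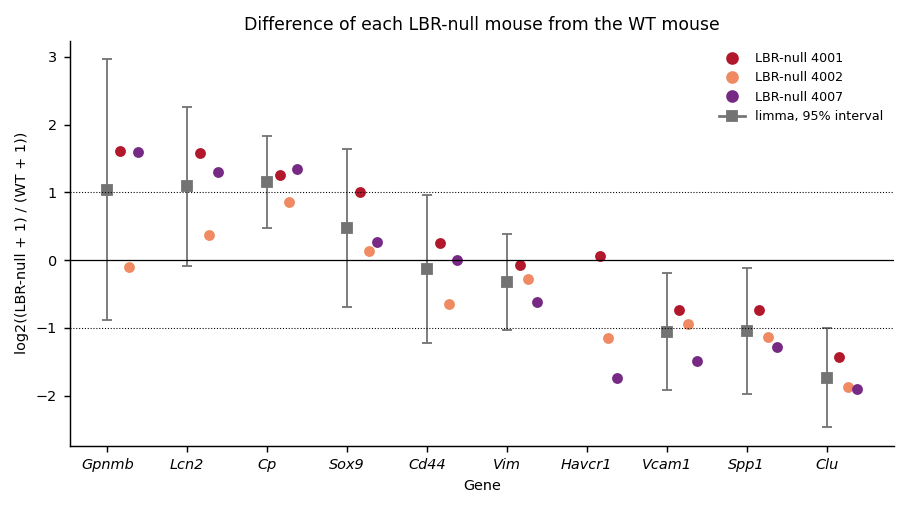
Difference of each LBR-null mouse from the WT mouse on the log2(normalized counts + 1) scale, for 10 genes ordered by the difference of the means. Circles are mice, gray squares are limma estimates with 95% intervals (none for Havcr1), and dotted lines mark 2-fold. The intervals of Cp, Vcam1, Spp1 and Clu do not reach 0.

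Vcam1 encodes an adhesion molecule of activated endothelium that also marks tubule cells whose repair has failed. The gene spans 115812938 to 115832606 on mm9 chromosome 3. Its normalized counts were 325 and 392 in mouse 4001, 308 in mouse 4002, 212 in both libraries of mouse 4007, and 578 and 612 in WT. All LBR-null libraries were below WT, with mouse 4007 farthest. WT was 2.03 times the LBR-null mean, again near the limit of 2-fold. The LBR-null mean was 0.560 of WT without mouse 4007, 0.480 without mouse 4002 and 0.437 without mouse 4001. The log2 fold change fitted to the log values was -1.05 (95% interval -1.92 to -0.19, adjusted p = 0.191 in limma). Itga4, which encodes a chain of its integrin receptor on leukocytes, was at 127 ± 41.5 (SD, n = 3) versus 199, below WT throughout, while Itgb7, at 84.5 ± 9.95 versus 73.8, overlapped. The sum of 10 endothelial markers was 26428 to 34432 in LBR-null libraries and 33369 to 34001 in WT libraries.

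Gpnmb encodes a transmembrane glycoprotein of lysosome-rich macrophages and injured epithelium, and spans 48986517 to 49020928 on mm9 chromosome 6. It was at 33.3 and 27.5 normalized counts in mouse 4001, 8.60 in mouse 4002, 34.5 and 25.5 in mouse 4007, and 9.45 and 9.05 in WT. Mice 4001 and 4007 were each over 3-fold above WT, while the value of mouse 4002 rests on 10 reads (95% Poisson interval 4.80 to 18.4 reads, counting error only) and cannot be told from WT. The mean of the LBR-null mice was 2.49 times WT, 3.27 times without mouse 4002 and 2.09 times without mouse 4001. Its interval of the log2 fold change, -0.89 to 2.97, was the widest of the 9 members (adjusted p = 0.529 in limma).

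Cd44 encodes the receptor for hyaluronan and osteopontin, and was at 130 and 116 normalized counts in mouse 4001, 65.3 in mouse 4002, 111 and 95.7 in mouse 4007, and 100.8 and 105 in WT. The WT libraries lay inside the range of LBR-null libraries, and without mouse 4001 the LBR-null mean was 0.820 of WT. The interval of the log2 fold change, -1.22 to 0.97, leaves room for a level below WT by over 2-fold (adjusted p = 0.912 in limma). Cd44 also serves as coreceptor for the cytokine MIF. Cd74, the other receptor chain and also the invariant chain of antigen-presenting cells, was at 391 ± 154 (SD, n = 3) versus 2578, below WT throughout. Mif itself was at 10203 ± 1177 versus 7065, above WT throughout. Of enzymes that make or degrade hyaluronan, Has3, Hyal1 and Hyal2 overlapped between the groups. Has1 and Has2 were under the mean of 5, with Has2 at 7.44, 0.860 and 1.38 in the LBR-null mice and 0 in WT.

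Havcr1 encodes KIM-1, which lets damaged proximal tubule cells engulf dead neighbours, and is nearly silent in healthy kidney. It had 8 and 6 reads in the libraries of mouse 4001, 3 in mouse 4002, 2 and 1 in mouse 4007, and 5 and 11 in WT. This gave 9.19 and 5.32 normalized counts, 2.58, 1.86 and 0.911, and 3.94 and 9.95 in the same order. The WT libraries differed 2.53-fold from each other, and their Poisson intervals were 1.62 to 11.7 and 5.49 to 19.7 reads. Mouse 4001 was at the WT level, while WT was 2.69 and 5.01 times the level of mice 4002 and 4007, and without mouse 4001 the LBR-null mean was 0.286 of WT with all remaining libraries below both WT libraries. The ratio was 0.539 over all mice, 0.950 without the second WT library and 1.15 with only the first library of each mouse, so its direction rests on single libraries. The gene was under the mean of 5 that the test required. Without this filter limma gave a log2 fold change of -0.94 with a standard error of 0.84 (adjusted p = 0.622). Timd4, which encodes a phosphatidylserine receptor of the same family, was at 20.1 ± 10.5 (SD, n = 3) versus 7.83, above WT throughout, and Timd2 and Havcr2 of that family overlapped.

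Sox9 was at 109 and 80.8 normalized counts in mouse 4001, 51.6 in mouse 4002, 55.9 and 57.4 in mouse 4007, and 54.3 and 38.9 in WT. Mouse 4001 stood apart at 2.04 times WT, mice 4002 and 4007 were at 1.11 and 1.22 times, and the WT libraries differed 1.40-fold. Without mouse 4001 the LBR-null mean was 1.16 times WT. The log2 fold change over all mice was 0.48 (95% interval -0.69 to 1.64, adjusted p = 0.643 in limma). Vim was at 3812 and 3239 in mouse 4001, 3054 in mouse 4002, 2410 and 2436 in mouse 4007, and 3707 and 3701 in WT. The first library of mouse 4001 was above WT and the other LBR-null libraries were below it (log2 fold change -0.32, 95% interval -1.03 to 0.39, adjusted p = 0.604 in limma). Without mouse 4001 the LBR-null mean of Vim was 0.739 of WT, with all remaining libraries below both WT libraries.

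Taking the 2-fold limit on the means, with 1 added to both, Gpnmb, Lcn2 and Cp were 2-fold higher (3 of 9 members, against 13.9% of 17283 genes) and Vcam1, Spp1 and Clu were 2-fold lower (3 of 9, against 6.78%). Without mouse 4001 only 1 was 2-fold higher (Cp), without mouse 4007 only 1 was 2-fold lower (Clu), and mouse 4002 taken alone had 0 members 2-fold higher than WT. The median log2 fold change of the 10 members was -0.19, and 0.03 over all genes tested. Mouse 4001 had a median of 0.16 over the members, mouse 4002 of -0.46 and mouse 4007 of -0.30, with 6, 3 and 5 of the 10 above WT. DESeq2 on the recovered reads summed per mouse called Cp higher (adjusted p = 0.0177, 3.08% of genes called higher) and Spp1 and Clu lower (adjusted p = 0.0388 and 2.79e-05, 3.33% called lower). limma over the 7 libraries with the mouse as a random effect called 4.90% of genes, among them Cp higher (adjusted p = 0.0103) and Spp1 and Clu lower (adjusted p = 0.0496 and 0.00217). That fit takes 1 within-mouse correlation, 0.741, for all genes. Its degrees of freedom come from libraries, so its p-values can be too low where libraries of a mouse agree closely. edgeR called 0 members, with 0.00579% of genes called higher and 0.156% lower, and unadjusted p-values under 0.05 for 1 member above WT and 3 below it, where 10.3% and 8.88% of all genes had such p-values. Lcn2, Gpnmb and Vcam1 were called by none of these 3 alternatives.

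Per kilobase of exon, the members ranged in WT kidney from 19615 normalized counts per kb for Spp1 to 2.01 for Gpnmb. The order in WT was Spp1, Clu (3561), Vim (1586), Cp (127), Vcam1 (121), Lcn2 (98.6), Cd44 (15.02), Sox9 (11.3), Havcr1 (3.005) and Gpnmb. In LBR-null kidneys Vim, at 1285 ± 237 (SD, n = 3), and Clu, at 1085 ± 209, overlapped in range, with Clu the lower in all 3 mice. Cp at 285 ± 49.3 and Lcn2 at 223 ± 86.9 overlapped too, with Lcn2 the lower in all 3 mice. Sox9 at 16.4 ± 5.73 and Cd44 at 14.2 ± 4.28 also overlapped, with Cd44 the lower in mice 4001 and 4002 and the higher in mouse 4007. Vcam1, next to Cp in WT, was at 59.6 ± 15.1 per kb in LBR-null mice, below Lcn2 in each of them. Lengths are those of all exons of a gene joined, so a level per kb is too low for a gene read mainly as a short isoform.

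**Figure D3:**
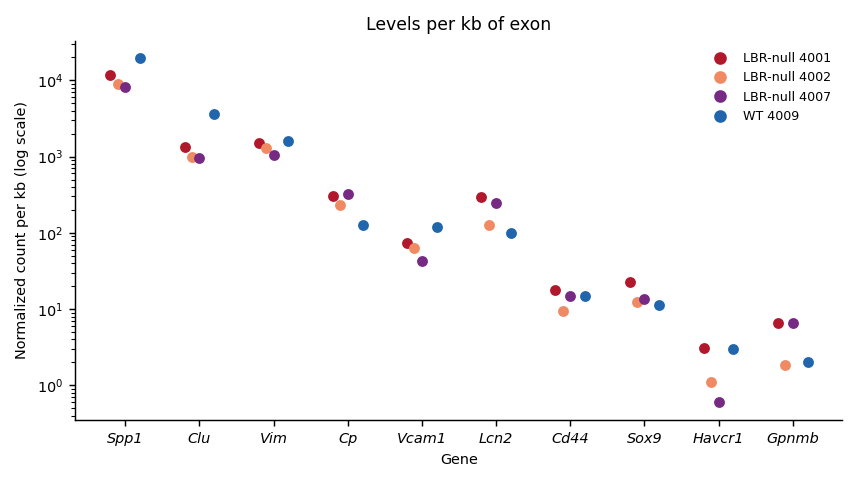
Level of 10 genes per kb of exon, in normalized counts on a log axis, ordered by the WT value. Circles are mice, red to purple for LBR-null and blue for WT. Spp1 is the highest in all 4 mice, and Clu lies above Vim in WT (3561 against 1586 per kb) but not in the LBR-null mice.

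In RNA of whole kidney tissue, fewer cells of a type and less RNA per cell cannot be told apart, so marker levels are given beside the members. Counts of markers above or below WT throughout are to be read against 25.5% and 25.7% of all genes tested. Of 13 neutrophil genes listed, 12 were found and 11 passed the mean of 5, 6 of them only through the LBR-null mice, with WT under 5, so no count over those that passed is read here. The sum of all found was 1186, 483 and 2756 normalized counts in mice 4001, 4002 and 4007 against 206 in WT. Lcn2 was highest in mouse 4001 and the neutrophil sum in mouse 4007, and in both measures mouse 4002 was nearest to WT. No found neutrophil marker was at 0 in all libraries, Mmp9 was below WT throughout, and the part of these cells in the level of Lcn2 was not tested here. By in situ hybridization, the study reported Lcn2 transcripts in tubular cells of LBR-null kidneys, and it detected Gpnmb in these kidneys by the same method. The 10 hepatocyte genes, listed after values were seen, were all detected in WT kidney too. Their sum was 20515, 7846 and 8784 against 3661 in WT, with 6 of 10 above WT throughout (25.5% of all genes), and Alb, named after its values were seen, at 8759, 2245 and 1546 against 1565. Cp was highest in mouse 4007 and this sum in mouse 4001, and its part in the levels of Cp and Lcn2 was not tested.

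Macrophages can carry Gpnmb and Spp1. Of 14 macrophage genes tested, 10 were below and 2 (Cd163 and Lyz2) above WT throughout, where 25.7% and 25.5% of all genes were, and the sum was 3479 to 4035 in LBR-null libraries and 5134 to 5220 in WT libraries. Gpnmb in mice 4001 and 4007 stood above WT where this sum stood below it. Proximal tubule markers were below WT throughout in 12 of 16 and above it in 3 of 16, with a median log2 fold change of -1.56. Their sum was 244003, 305264 and 151313 against 615561, and Kap, an androgen-responsive gene, made up 128162, 205800, 59162 and 357146 of it. Without Kap, a choice made after the values were seen, the sum was 115841, 99464 and 92151 against 258415 and the median -1.61. Slc22a6, an organic anion transporter, was at 409 ± 126 (SD, n = 3) versus 7282. Of the markers that follow, those called higher or lower were above or below WT throughout, against the same shares of all genes. Loop of Henle and distal tubule markers, with 3 of 10 higher and 3 lower and a median of 0.02, were near those shares. Collecting duct markers (1 of 11 higher, 3 lower) had a median of -0.23, podocyte markers (5 of 7 lower) -0.59, endothelial markers (1 of 10 higher, 2 lower) -0.10, fibroblast and mural markers (6 of 12 lower) -0.41 and lymphocyte markers (1 of 10 higher, 5 lower, 1 of which passed the mean of 5 only through WT) -0.51. Their part in the levels of the members was not tested.

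**Figure D4:**
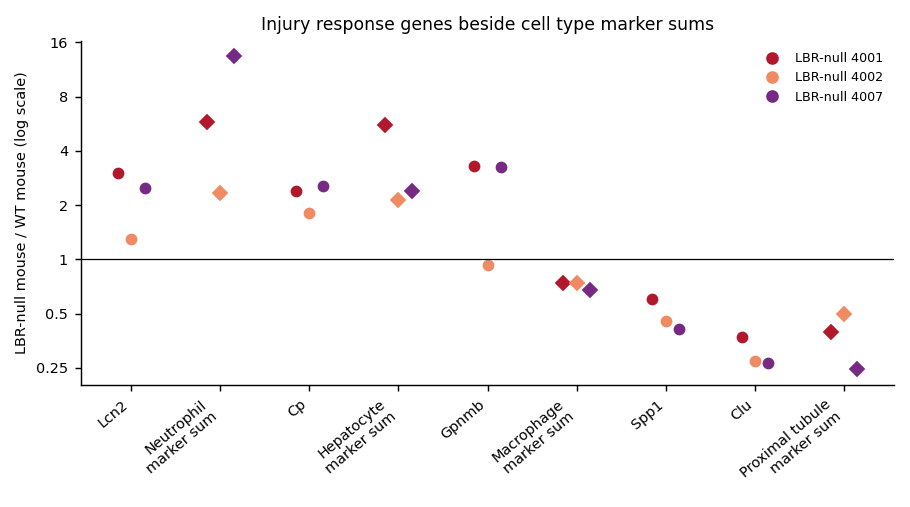
Ratio of each LBR-null mouse to the WT mouse on a log axis, for 5 injury response genes (circles) and 4 sums of cell type markers (diamonds, the proximal tubule sum with Kap). The neutrophil sum is highest in mouse 4007 while Lcn2 is highest in mouse 4001, and Gpnmb lies above 1 in mice 4001 and 4007 while the macrophage sum lies below 1 in all 3.

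Other genes of the injury response, from lists of related function, also lay on both sides of WT, as genes in general did. In the counts that follow, higher and lower stand for above and below WT throughout, to be read against 25.5% and 25.7% of all genes, and medians against 0.03. Of 18 tested keratins and stress proteins of injured tubules, 5 were higher and 5 lower, with a median log2 fold change of -0.08. Krt18, a keratin of simple epithelium, was at 4299 ± 499 normalized counts (SD, n = 3) versus 2353, and Sprr1a, a small proline-rich protein of stressed epithelium, at 202 ± 121 versus 506. Of 18 genes of failed tubule repair, 4 were higher and 8 lower, with a median of -0.21. Csf1, the macrophage growth factor, was at 189 ± 33.7 versus 495, and Itgb6, whose integrin activates latent TGF-beta, at 700 ± 146 versus 1647. On the higher side, Kcnip4 was at 39.3 ± 1.07 versus 12.6. Among other proteins measured in urine, 5 of 16 were higher and 3 lower, with a median of 0.22. Fga, which encodes a fibrinogen chain, was at 6124, 1217 and 3946 in mice 4001, 4002 and 4007 against 529. Retn was at 13.1 ± 3.99 versus 47.8, and B2m, the light chain of class I molecules, at 5505 ± 445 versus 10634.

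Of 23 tested transcription factors of the injury response, 9 were higher and 3 lower, with a median of 0.27. Myc was at 325 ± 61.1 (SD, n = 3) versus 142 and Fosl2, a subunit of AP-1, at 1994 ± 484 versus 876, while Foxm1, a factor of cell division, was at 25.6 ± 2.96 versus 147. Of 18 tested genes of cytokine signaling, 5 were higher and 3 lower, with a median of 0.12. Il6ra, the receptor of interleukin 6, was at 366 ± 118 versus 150, and Il22ra1 at 16.4 ± 2.28 versus 48.7. Of 16 genes of protection and repair, 5 were higher and 3 lower, with a median of 0.25. Cdkn1a, which encodes the cell cycle inhibitor p21, was at 5234, 2401 and 3281 against 459 and Mt2, a metallothionein, at 6678, 2411 and 3132 against 699. On the lower side, Plin2 was at 779 ± 208 versus 1846. Proliferation genes were lower in 11 of 13 and higher in 0, with a median of -2.33, and Mki67, a marker of dividing cells, was at 85.4 ± 37.2 versus 1052. Of 30 tested receptors, ligands and partners of the members, 9 were higher and 7 lower, with a median of 0.16. limma called 0 genes of any list over all genes tested, and the highest counts at an unadjusted p under 0.05 were 11 of 13 proliferation genes and 11 of 16 proximal tubule markers lower, where 8.05% of all genes were lower at that limit, leaving aside neutrophil markers for the reason given above.

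**Figure D5:**
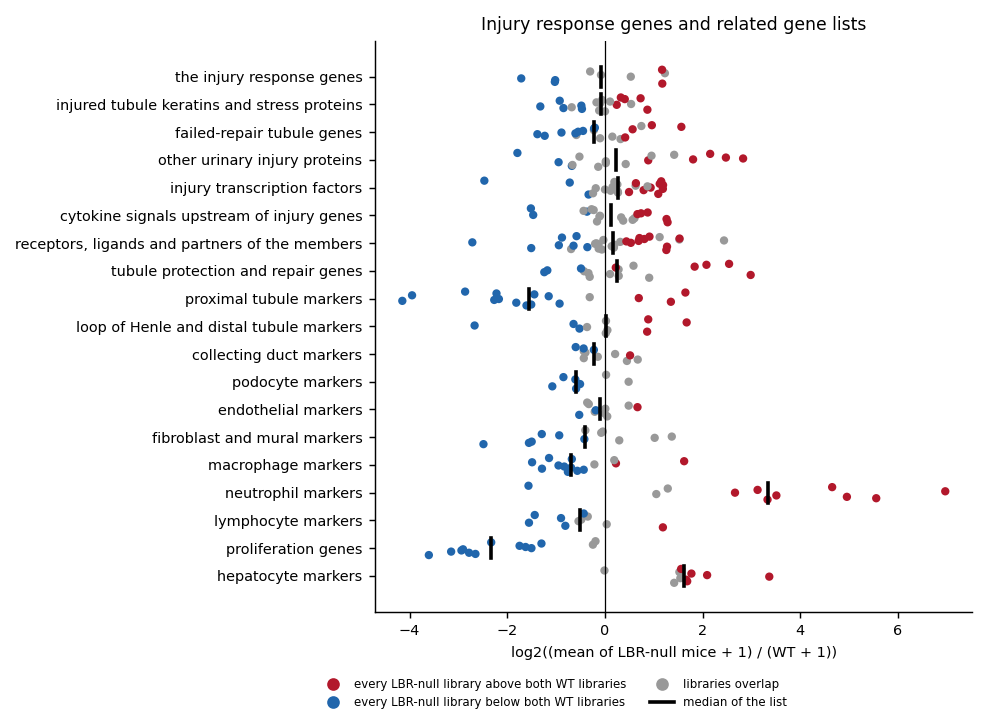
log2 ratio of LBR-null to WT means, with 1 added to both, for the tested genes of each list (x axis) in 19 lists (y axis). Each point is a gene, colored by whether every LBR-null library lies above or below both WT libraries, and black bars are medians. The injury response genes spread to both sides of 0, as most injury lists do, while proliferation and proximal tubule genes lie mostly below 0. No side is read for neutrophil genes, since 6 of the 11 tested passed the required mean only through the LBR-null mice.

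Likeness between genes was measured as the root mean square difference of log2(library / WT mean), with 1 added to both, over the 5 LBR-null libraries, so a lower value means a more similar profile. Within the members, Spp1 and Vcam1 were the most alike (0.20), followed by Lcn2 and Gpnmb (0.31) and Lcn2 and Cp (0.32). Among 14636 other genes with a mean of at least 20, the nearest to Lcn2 were Adck3 (0.11), Qsox1 (0.11) and Masp1 (0.13), and to Cp Tbrg3 (0.07), Fosl2 (0.12) and Tgif1 (0.12). The nearest to Spp1 were Galns (0.07), Acox2 (0.09) and Coq10b (0.09), to Vcam1 Sqle (0.09), Fam114a1 (0.11) and Echdc1 (0.12), and to Clu Odc1 (0.11), Myl9 (0.11) and Prelp (0.15). These are 5 libraries of 3 mice, and the values are descriptions only.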

How the data were processed

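Polyadenylated kidney RNA of 3 LBR-null mice and 1 WT mouse was sequenced as 150 bp read pairs. Per the labels and methods, the authors used STAR 2.6.0 for alignment to mm9, and the signal they deposited per gene symbol and library is the read count after division by a DESeq2 1.25.1 size factor. The program and annotation used for counting are not given in the sources used here. All deposited values were whole multiples of 1 read within 0.01 read (100%), so the reads were recovered by division.

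Libraries were averaged within a mouse, because the labels do not say whether libraries come from separate aliquots. Mouse means were tested on the log2(normalized counts + 1) scale with limma 3.58.1 (trend, R 4.3.3), which had 2 residual degrees of freedom and took in 17283 genes whose mean reached 5, with Benjamini-Hochberg adjustment. The spread of WT mice is taken to equal that of LBR-null mice, since there is 1, and p-values measure the spread between these animals. edgeR 4.0.16, DESeq2 1.42.0, limma with the mouse as a random effect, other pseudocounts, filters and scalings, and leaving out mice or libraries were alternatives. The fits were tested on simulated data before use.

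Gene coordinates and exon lengths are from GENCODE M1 models of mm9, upstream sequences from RefSeq (GRCm38.p6), and the builds were not mixed. The members and lists were chosen with earlier results of these data known, and hepatocyte genes were listed after values were seen. Named genes were all members, at most 2 higher and 2 lower genes of a list among those whose groups did not overlap, partners of a member, the 3 nearest genes to a member, and Lbr, Xist and Ddx3y. Outside this rule, Umod and Aqp2 were named as kidney markers, and Kap and Alb, after their values were seen. Intervals of reads are exact Poisson intervals.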

Additional observations from a re-analysis of the deposited data

How the results depend on the processing

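No paired analysis was possible because the numbers shared between mice name libraries within a mouse and pair no mice. The count of genes called, 0 in limma, was 28 with edgeR, 1109 with DESeq2 and 847 with the mouse as a random effect, and 0 to 1163 when a mouse or library was left out, with 1163 without mouse 4001 and 625 without mouse 4002. The members called were 0 in limma and edgeR, 3 with DESeq2 and 3 with the random effect (Cp, Spp1 and Clu both times). With a mouse or library left out, Cp, Clu and Vcam1 were called without mouse 4001, and no member was called in any other such fit. The members 2-fold higher numbered 1 to 3, the lowest without mouse 4001, where only Cp stayed past the limit with 1 added to both means, while Gpnmb was at 2.09 times WT with nothing added. The members 2-fold lower numbered 1 to 4, with only Clu left without mouse 4007, and those above WT in every library 2 to 4, with Gpnmb and Sox9 added without mouse 4002. The members with enough counts for the test that were below WT in every library were 3 or 4 in each alternative that gave this count. The log2 fold change of Cd44 ran from -0.32 to 0.13 with a mouse or library left out, and turned above 0 without mouse 4002 (adjusted p = 0.912 in limma), and the median of the members turned from -0.19 to 0.09 with the first library of each mouse. Directions of the other 8 tested members were the same in each alternative, and TMM or equal totals moved the median of all genes by less than 0.1. Depth limits Havcr1 and Gpnmb, and 1 WT mouse limits each comparison.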
